A study of Homo sapiens with 20 samples.

Results

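The genes described here encode the teneurins TENM1, TENM2, TENM3 and TENM4, the latrophilins ADGRL1, ADGRL2 and ADGRL3, and the FLRT proteins FLRT1, FLRT2 and FLRT3. They were taken by symbol, and all 10 were among the 24196 genes of the deposited table. The family was selected because TENM2 stood out in the comparison of gluconate with PBS in these same libraries, where it had the lowest p of the genes that also passed the fold threshold, so that comparison is used up for its members. Their values in it are therefore given as a description, with no test, and support nothing.

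RNA-seq was run on orthotopic tumors of OVCAR8, a human ovarian cancer cell line, grown in NSG mice. The mice had received PBS (4 tumors) or sodium gluconate (4 tumors). A further 12 libraries of the series, from cultured OVCAR8 cells with a CHP1 or TMEM87A knockout or with sgNC, were not analysed here. Columns headed C were read as PBS and those headed T as gluconate, after the axis of the study's volcano plot, a ratio of T to C, and the samples are called tumors as in the labels, although the study's results text writes of cells.

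According to the methods, 1000000 OVCAR8 cells carrying a luciferase reporter were placed in the ovarian fat pad of NSG mice at 6 weeks of age. PBS or 1 mg/kg sodium gluconate was then injected intraperitoneally once a week for 35 days. The study names the sgNC-luc line for its gluconate experiment, and the labels call sgNC a non-targeting control. NSG mice lack T, B and NK cells but keep stroma and myeloid cells, and the processing notes name a human genome build only, so mouse RNA was not counted separately here. In bulk tissue, fewer cells that express a gene and less RNA of it per cell cannot be told apart. No label says how the 4 tumors of a group relate beyond their numbers, so a p-value measures the spread between these samples.

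Teneurins are large transmembrane adhesion proteins that act as ligands across the gap between cells. Their best known receptors are the latrophilins, which belong to the adhesion G protein-coupled receptors (GPCRs). FLRT proteins carry leucine-rich repeats outside the cell and bind latrophilins too, as well as the UNC5 receptors of axon guidance. All 3 groups are best known from the nervous system, where their contacts help neurites find partners and synapses form, and several members are also made in other tissues.

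The values were FPKM, the fragments of a gene divided by its length and by the fragments of the library, so levels of different genes are compared per length. The values fell on steps that whole fragments give, and these steps showed the depth. PBS replicates 1, 2, 3 and 4 had 45605414, 46551535, 39895393 and 3953206 fragments. Gluconate replicates 1, 2, 3 and 4 had 40332129, 42786196, 39325749 and 42748028. PBS replicate 4 was thus between 9.95 and 11.8 times shallower than the others, and 15514 genes were above 0 in it against 19991 to 20251 elsewhere. It also stood apart in correlation. Over the genes tested, its Pearson correlations with the other libraries on log2(FPKM + 0.1) ran from 0.938 to 0.951, against 0.980 to 0.994 among the other 7. The part of depth in this was not tested. Many of the values below are also given without it.

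Expression of the family was led by a receptor. By mean FPKM over the 8 libraries, the order was ADGRL2 at 21.0, ADGRL1 at 3.91, TENM3 at 3.71, TENM2 at 1.81, TENM4 at 1.14, FLRT2 at 0.294, FLRT3 at 0.206, TENM1 at 0.158, ADGRL3 at 0.0988 and FLRT1 at 0.00382. ADGRL2 exceeded ADGRL1 in 8 of 8 libraries, as TENM3 did TENM2, TENM1 did ADGRL3 and ADGRL3 did FLRT1, and FLRT2 exceeded FLRT3 in 7. The other neighbours in this order did not separate: ADGRL1 was above TENM3 in 5 libraries, TENM2 above TENM4 in 6, TENM4 above FLRT2 in 5 and FLRT3 above TENM1 in 5. Without PBS replicate 4 the order was the same, but TENM4 averaged 0.457 FPKM. Among all listed genes, 88.3% had a lower mean than ADGRL2, 59.3% a lower mean than TENM2 and 10.7% a lower mean than FLRT1.

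A mean of at least 0.5 FPKM was asked of a gene to enter the fit across genes, and 5 of the 10 members met it: TENM2, TENM3, TENM4, ADGRL1 and ADGRL2. TENM4 met it through PBS replicate 4 and would not without that library. The other 5 members stayed under 0.5 FPKM in each of the 8 libraries.

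Among the ligands, TENM2 was lower in every gluconate tumor than in any PBS tumor. TENM2 lies on chromosome 5 from 167284799 to 168264157 of GRCh38, on the plus strand, by GENCODE 29. TENM2 measured 1.77, 3.25, 2.87 and 2.14 FPKM in PBS replicates 1, 2, 3 and 4, backed by 1346, 2515, 1908 and 141 fragments. The gluconate replicates 1, 2, 3 and 4 measured 0.894, 0.851, 1.01 and 1.67 FPKM, backed by 600, 606, 661 and 1186 fragments. Across the groups, gluconate replicate 4 came close to PBS replicate 1, and the 95% Poisson intervals of these libraries, 1.57 to 1.76 and 1.68 to 1.87 FPKM, overlapped. These intervals cover counting error only. PBS replicate 4 lay inside the range of the other PBS tumors, with an interval of 1.80 to 2.53 FPKM.

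The PBS mean of TENM2 was 2.51 ± 0.671 FPKM (SD, n = 4) and the gluconate mean 1.11 ± 0.380 FPKM (SD, n = 4), a ratio of 0.441. Without PBS replicate 4 the PBS mean was 2.63 ± 0.766 (SD, n = 3). The log2 fold change on the log2(FPKM + 0.1) scale, which understates changes of low genes, was -1.12 with an SE of 0.253, and -1.18 without PBS replicate 4. In no other member did the groups separate. For the record, 176 of 12486 genes tested, or 1.41%, had every gluconate value under every PBS value. Without PBS replicate 4 these were 459 of 12530, or 3.66%, where fewer samples make separation easier. Nothing is read from TENM2 being among them, since it was chosen by this contrast.

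TENM3 was the most abundant teneurin outside PBS replicate 4 and held a narrow range. It lies on chromosome 4 from 182143987 to 182803024, plus strand. It measured 3.72, 3.91, 3.72 and 2.75 FPKM in PBS replicates 1, 2, 3 and 4, and 3.76, 4.29, 3.83 and 3.71 FPKM in gluconate replicates 1, 2, 3 and 4. The groups overlapped, and 7 libraries lay between 3.71 and 4.29. PBS replicate 4 lay below them, with 127 fragments and a 95% Poisson interval of 2.29 to 3.27 FPKM. The log2 fold change of TENM3 was 0.15, and 0.04 without that library.

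Because both genes are read in the same library, the ratio of TENM2 to TENM3 does not depend on how libraries are scaled. It was 0.476, 0.831, 0.772 and 0.779 in PBS replicates 1, 2, 3 and 4, and 0.237, 0.198, 0.264 and 0.450 in gluconate replicates 1, 2, 3 and 4. As with TENM2 alone, the groups did not overlap, and PBS replicate 1 and gluconate replicate 4 were the nearest. TENM2 was chosen by the comparison of gluconate with PBS and TENM3 held a narrow range, so nothing is read from this separation. TENM2 made up 29.2%, 39.7% and 41.2% of the summed FPKM of the 4 teneurins in PBS replicates 1, 2 and 3, and 17.6%, 13.5%, 19.3% and 29.1% in gluconate replicates 1, 2, 3 and 4. In PBS replicate 4 the share of TENM2 was 19.6%, because TENM4 made up 54.0% there.

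TENM4 set that library apart. It lies on chromosome 11 from 78652831 to 79440948, minus strand. TENM4 measured 0.429, 0.864, 0.251 and 5.91 FPKM in PBS replicates 1, 2, 3 and 4, backed by 314, 646, 161 and 375 fragments. Its values in the gluconate replicates 1, 2, 3 and 4 were 0.264, 0.938, 0.269 and 0.187 FPKM. PBS replicate 4 was far above all other libraries, and its 95% Poisson interval, 5.33 to 6.54 FPKM, lay above their values. PBS replicate 2 and gluconate replicate 2 came next, and the groups overlapped. The log2 fold change of TENM4 was -1.19 with an SE of 0.814 over the 8 libraries, and -0.33 without PBS replicate 4, so most of it came from that library.

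**Figure D1:**
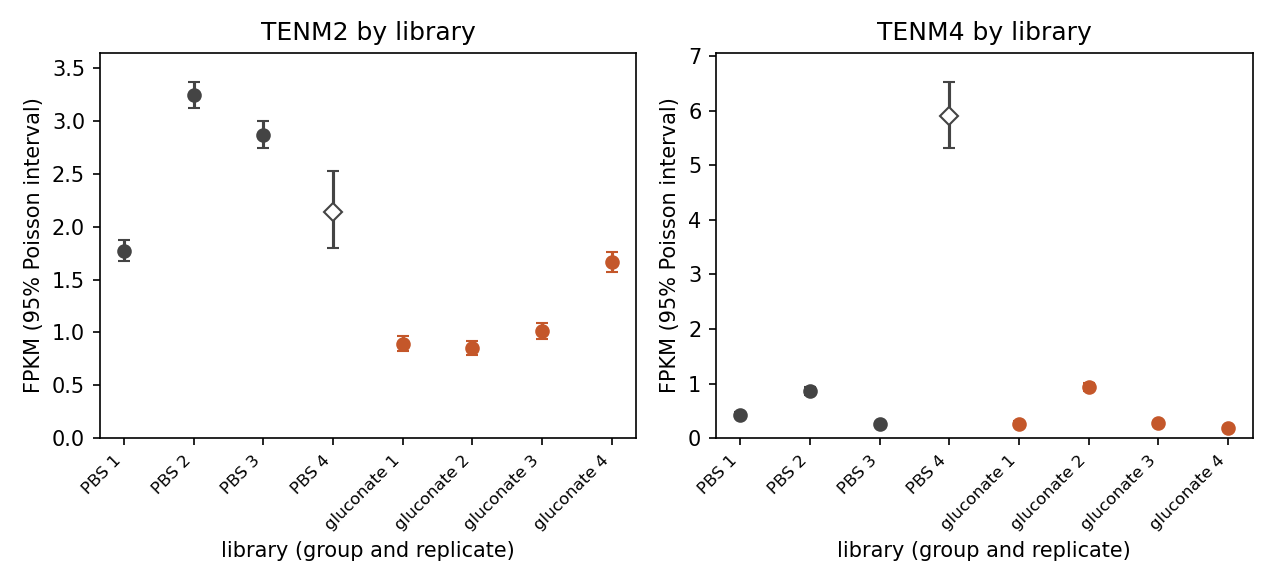
FPKM of TENM2 (left) and TENM4 (right) in each tumor library (x axis), where bars span the 95% Poisson interval of the counting. TENM2 was between 1.77 and 3.25 FPKM in PBS tumors and between 0.851 and 1.67 in gluconate tumors, while TENM4 was at 5.91 FPKM in PBS replicate 4 (open diamond) and at most 0.938 elsewhere.

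TENM1 was low. It lies on chromosome X from 124375903 to 124963817, minus strand, and ran from 0.122 to 0.236 FPKM over the 8 libraries, from 9 fragments in PBS replicate 4 to 157 in gluconate replicate 2. The PBS mean was 0.145 ± 0.0157 (SD, n = 4) and the gluconate mean 0.171 ± 0.0449 (SD, n = 4), with overlapping ranges. Its exons share 241 bases with STAG2, a gene on the other strand that was listed at 20.3 to 48.7 FPKM. Whether the counting used strand is not given in the sources used here, so reads of STAG2 may be among those of TENM1.

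Of the receptors, ADGRL2 was the most abundant member of the family. It lies on chromosome 1 from 81306160 to 81992436, plus strand. ADGRL2 measured 20.0, 24.8, 24.6 and 20.7 FPKM in PBS replicates 1, 2, 3 and 4. Gluconate replicates 1, 2, 3 and 4 measured 20.7, 18.8, 19.8 and 18.3 FPKM. PBS replicates 2 and 3 were the highest, PBS replicates 1 and 4 lay at the level of gluconate replicate 1, and the groups overlapped. The log2 fold change was -0.21 with an SE of 0.0950, and -0.25 without PBS replicate 4.

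ADGRL1, on chromosome 19 from 14147743 to 14206187, minus strand, measured 3.97, 4.13, 4.69 and 3.13 FPKM in PBS replicates 1, 2, 3 and 4, and 3.73, 4.53, 3.78 and 3.34 in gluconate replicates 1, 2, 3 and 4. These ranges overlapped across most of their width. The log2 fold change was -0.04, and -0.15 without PBS replicate 4, but it was above 0 without PBS replicate 3, at 0.04, and without gluconate replicate 4, at 0.02.

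ADGRL3, on chromosome 4 from 61201258 to 62078335, plus strand, ran from 0.0398 to 0.127 FPKM. The lowest value came from PBS replicate 4, where 3 fragments gave an interval of 0.00821 to 0.116 FPKM that holds the 0.108 to 0.109 FPKM of gluconate replicates 1, 3 and 4. PBS replicate 3 was also low, at 0.0565 FPKM from 43 fragments. ADGRL2 accounted for 80.2% to 86.7% of the summed FPKM of the 3 latrophilins in every library. The latrophilins together exceeded the teneurins per length by 3.56 to 4.84 times in 7 libraries and by 2.18 times in PBS replicate 4, where TENM4 was high.

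FLRT transcripts were few. FLRT2, on chromosome 14 from 85530144 to 85654426, plus strand, measured 0.359, 0.304, 0.202 and 0.133 FPKM in PBS replicates 1, 2, 3 and 4, and 0.282, 0.374, 0.408 and 0.290 in gluconate replicates 1, 2, 3 and 4. The groups overlapped, and the lowest value, in PBS replicate 4, rested on 25 fragments. FLRT3, on chromosome 20 from 14322988 to 14337616, minus strand, ran from 0.127 to 0.343 FPKM with 8 to 75 fragments. Its highest value, in PBS replicate 4, had an interval of 0.148 to 0.676 FPKM, which reached over the values of PBS replicate 3 and gluconate replicates 1, 2 and 3.

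FLRT1, on chromosome 11 from 64103188 to 64119173, plus strand, had 0 to 6 fragments per library and at most 0.0122 FPKM. It was listed at 0 in PBS replicates 3 and 4 and gluconate replicate 2. A count of 0 allows up to 3 fragments, or 0.00601, 0.0606 and 0.00560 FPKM in these libraries, so no difference in FLRT1 was detectable at this depth and no fold is given.

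The lengths that the steps of the table give are not those of GENCODE 29, whose summed exons are one possible measure of length. They ran from 97.5% of that measure in TENM3 to 317% in FLRT1, with 151% in TENM2. The level of FLRT1, divided by 12514 bases where GENCODE 29 has 3949, therefore depends most on the annotation, while a ratio between libraries of 1 gene does not. For FLRT2 the length was 47609 bases.

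The members share little sequence that read counting could mix up. Over the GENCODE 29 transcripts, no stretch of 31 bases was shared between any pair of the 10 members. Of the 11088 different stretches of TENM2, 0 occurred in a transcript of another gene on either strand, and of the 16375 of TENM4, 12. FLRT1 shared 23.3% and ADGRL1 5.82% with other genes, mostly with transcripts annotated as antisense. The table also lists ADGRL1-AS1 at 0.216 to 0.964 FPKM, TENM3-AS1 at 0.0477 to 0.366 and FLRT2-AS1 at 0.0491 to 0.272, and without strand their reads and those of the sense genes cannot be told apart where they overlap.

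The question behind the comparison across all genes is which transcripts differ in tumors under gluconate. It was run with limma on 12486 genes, and the rule was an unadjusted p under 0.05 with a log2 fold change of 1 or more, up or down. By this rule 13 genes, 0.104%, were counted lower and 24, 0.192%, higher in gluconate tumors. TENM2 was the 1 member counted, in the lower group, and nothing is read from this since it was chosen from that contrast. At an adjusted p under 0.05 limma called 0 genes, the lowest adjusted p being 0.741. An unadjusted p under 0.05 was reached by 577 genes, 4.62%, and limma's voom on the recovered fragments also called 0 after adjustment. The 577 became 1216 without PBS replicate 1, and 288 and 267 without gluconate replicates 3 and 4.

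These counts moved with single libraries. Genes counted lower were 28, 22, 46 and 8 without PBS replicates 1, 2, 3 and 4, and 6 and 8 without gluconate replicates 3 and 4. Genes counted higher were 63, 54, 36 and 3 without PBS replicates 1, 2, 3 and 4, and 9 and 15 without gluconate replicates 3 and 4. Quantile normalization gave 14 lower and 10 higher, so that 58.3% of the counted genes were lower in place of 35.1%. TENM2 missed the fold threshold with a pseudocount of 1, at -0.73, and without PBS replicate 2, at -0.99.

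**Figure D2:**
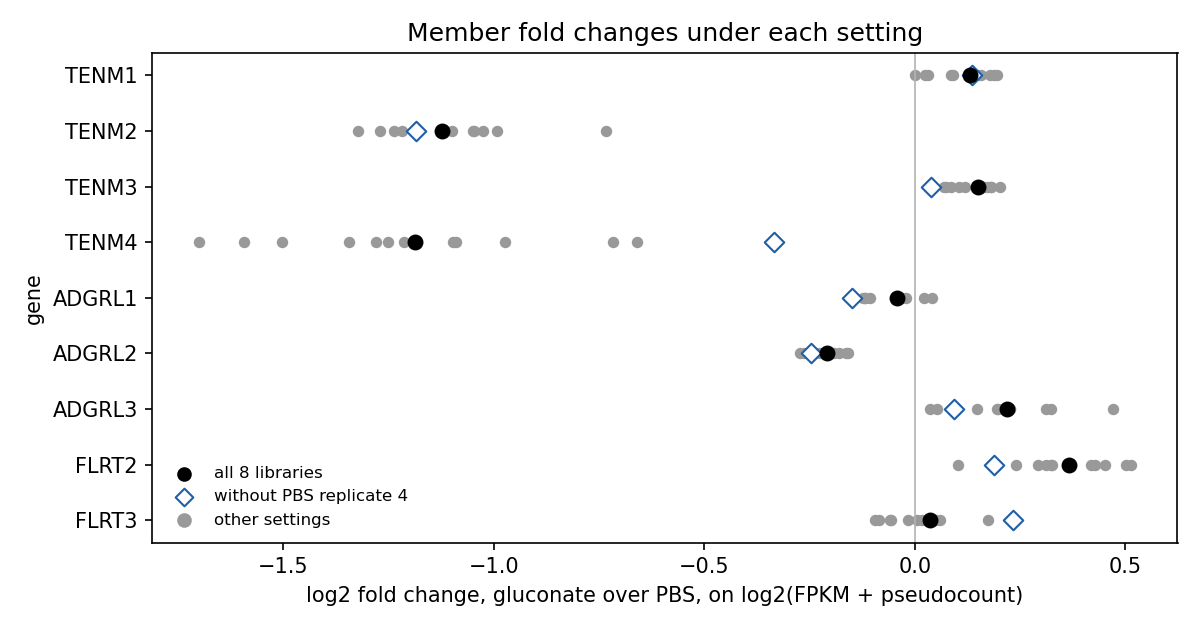
Log2 fold change of gluconate over PBS (x axis) for 9 members, FLRT1 being left out for lack of fragments, with all 8 libraries (black), without PBS replicate 4 (open diamonds) and under the other settings and leave-outs (gray). TENM2 stayed between -1.32 and -0.73 and TENM4 ran from -1.70 to -0.33, while values of ADGRL1, FLRT3 and TENM1 fell on both sides of 0.

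Known partners of the family came from a list of 12 genes, of which 4 met the level for testing. FGFR1, a growth factor receptor that binds FLRT proteins, averaged 43.8 FPKM, DAG1, the dystroglycan gene, 24.5, and ROBO1, a guidance receptor, 19.0. GPC3, a cell surface proteoglycan, averaged 7.97 FPKM. None of these 4 had an unadjusted p under 0.05 in limma, and their median log2 fold change was -0.00, beside 0.07 for all genes tested. Without PBS replicate 4 it was 0.11, beside -0.00. FGFR1 and DAG1 were both highest in PBS replicate 4, at 53.5 and 32.9 FPKM against at most 44.8 and 26.6 elsewhere.

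The 8 partners under the level included all UNC5 receptors, which bind FLRT proteins, and the neurexins NRXN2 and NRXN3. UNC5A averaged 0.241, UNC5B 0.279, UNC5C 0.0159 and UNC5D 0.0489 FPKM. CNTN6 and NRXN3 were at most at 0.0180 and 0.00349 FPKM.

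Proteins that act on or with the family inside the cell formed a list of 11 genes, with 10 tested. The G protein subunits led: GNAQ averaged 22.5, GNA12 22.0, GNA13 19.3 and GNA11 18.7 FPKM, and latrophilins are known to signal through proteins of these classes. GNAQ was the 1 gene of the 10 with an unadjusted p under 0.05, which 4.62% of all genes tested reached. It measured 23.1, 20.8, 19.7 and 20.3 FPKM in PBS replicates 1, 2, 3 and 4 and 24.0, 23.7, 24.4 and 23.8 in gluconate replicates 1, 2, 3 and 4. PBS replicate 1 was close to the gluconate tumors, the log2 fold change was 0.20 with an SE of 0.0732 and 0.18 without PBS replicate 4, and the limma adjusted p of 0.741 did not pass. FURIN, the protease that cleaves teneurins, averaged 5.75 FPKM, SHANK3, a scaffold that binds latrophilins, 2.58, and ZIC1 at most 0.0490. The median log2 fold change of the tested genes was 0.09, and 0.01 without PBS replicate 4.

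Of 29 other adhesion GPCRs, 24 were listed and 13 tested, with 0 at an unadjusted p under 0.05 in limma. ADGRE5 (CD97) averaged 23.9, ADGRG6 16.7 and ADGRG1 6.27 FPKM, so ADGRL2 was in the range of the most abundant of its class. ADGRG1 was at 1.53 FPKM in PBS replicate 4, from 38 fragments, and at 11.1 in gluconate replicate 3, with the rest between 5.54 and 7.09. ADGRL4, which shares its name with the latrophilins but is an endothelial receptor, was at 0 in 7 libraries and at 0.00701 FPKM in gluconate replicate 1. The median log2 fold change was 0.18, beside 0.07 for all genes tested, and 0.05, beside -0.00, without PBS replicate 4.

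Other leucine-rich repeat adhesion proteins numbered 24, with 22 listed and 4 tested. AMIGO2, an adhesion protein of the AMIGO family, measured 19.0, 9.39, 7.80 and 2.43 FPKM in PBS replicates 1, 2, 3 and 4 and 14.2, 20.2, 23.1 and 23.2 in gluconate replicates 1, 2, 3 and 4. PBS replicate 1 lay inside the gluconate range, and PBS replicate 4 was the lowest, with 38 fragments. Its log2 fold change of 1.36 with an SE of 0.506 placed it among the 24 genes counted higher, but the limma adjusted p was 0.741, and without PBS replicate 4 it was 0.82, under the fold threshold. SLITRK5 averaged 3.12 and AMIGO3 1.83 FPKM, with log2 fold changes of -0.05 and 0.18, and of -0.09 and 0.01 without PBS replicate 4. The list's median was 0.28, and 0.04 without PBS replicate 4.

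**Figure D3:**
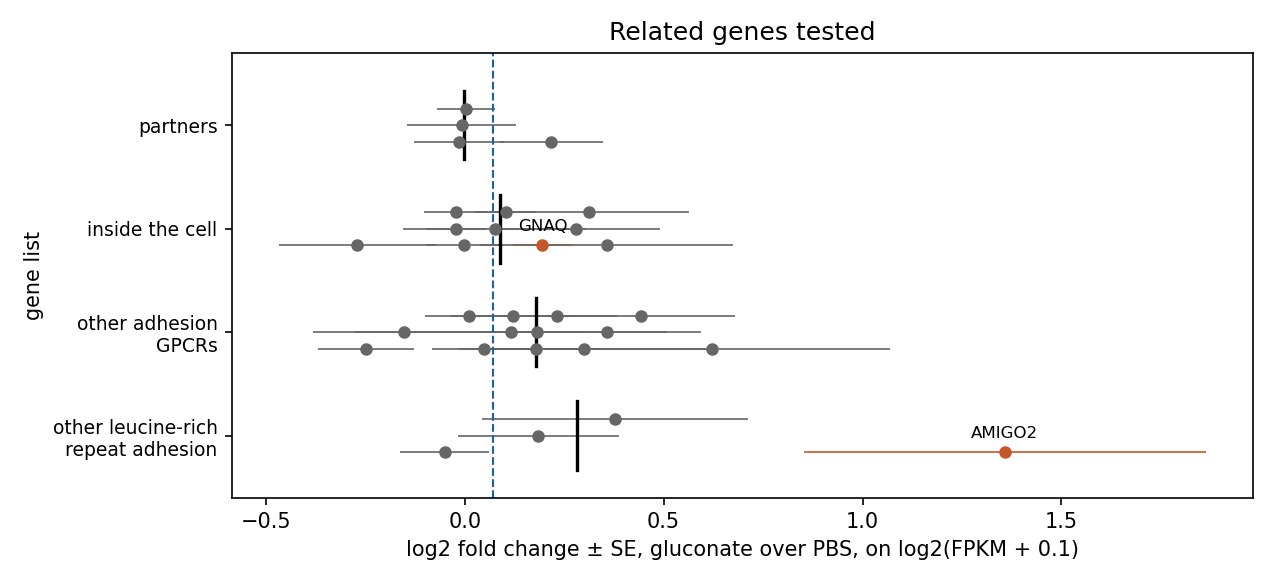
Log2 fold change of gluconate over PBS with its SE (x axis) for the tested genes of the 4 related lists, with the list median as a black bar and the median of all genes tested, 0.07, as a dashed line. Orange marks an unadjusted p under 0.05, which GNAQ at 0.20 and AMIGO2 at 1.36 reached and no other gene of these lists.

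Low genes of this last list that were highest in PBS replicate 4 included LRRTM3 at 0.460 FPKM, against at most 0.0710 elsewhere, and LRRC4 at 0.413, against at most 0.145. In all, 9 of the 22 listed genes were highest in that library and 8 were lowest in it. The 9 rest on few fragments, 11 for LRRTM3 and 7 for LRRC4. Of the 12 partners, 4 were highest and 4 lowest in PBS replicate 4. These counts were 0 and 5 of the 11 genes inside the cell, and 4 and 8 of the 24 other adhesion GPCRs. No share over all genes is given beside these counts, so nothing is read from them. The genes set beside TENM4 here and further on were chosen after their values were seen.

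Marker genes were read to see what the tumors hold. Of 11 ovarian carcinoma markers, 7 met the level, led by KRT8 at 846 FPKM on average, and PAX8, a transcription factor of the lineage, ran from 32.4 to 50.7 FPKM. MUC16 (CA125) was at most at 0.00168 FPKM and KRT19 at most at 0.0357, so these 2 markers were near 0. The summed level of the list was 1808, 2132, 2413 and 1980 FPKM in PBS replicates 1, 2, 3 and 4 and 2017, 1670, 1905 and 2180 in gluconate replicates 1, 2, 3 and 4, with overlapping groups. KRT7 had an unadjusted p under 0.05 and a limma adjusted p of 0.741, with a log2 fold change of 0.73, and 0.48 without PBS replicate 4.

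Markers of other cell types differed in level. The 6 listed neuronal markers summed to 5.21 to 7.77 FPKM, led by SYT1 at 4.25 on average, with ELAVL3 at most at 0.0262 and STMN2 at most at 0.0505, while ELAVL4 was at 0.277 in PBS replicate 4, from 9 fragments, and at most at 0.0107 elsewhere. Human endothelial markers summed to at most 0.707 FPKM over 5 listed genes, led by PECAM1, and the 3 listed adipocyte markers to at most 0.335, led by CIDEC. Myeloid markers were led by CD68 at 24.7 FPKM on average, while PTPRC and CD14 were at most at 0.0165 and 0.0302. Fibroblast markers were led by COL1A1 at 145 FPKM on average, with COL1A2 at most at 0.0678 and PDGFRA at most at 0.0136, and summed to 45.3 FPKM in PBS replicate 4 against 130 to 192 elsewhere. None of these 5 sums separated the groups.

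Of the granulosa cell markers, FOXL2 was high with TENM4 in PBS replicate 4, and AMH was not. The other 3 had 0 fragments there, which at that depth does not show whether they were high. The 5 granulosa markers summed to 5.62, 6.86, 5.61 and 22.9 FPKM in PBS replicates 1, 2, 3 and 4 and to 3.62, 5.52, 4.05 and 5.38 in gluconate replicates 1, 2, 3 and 4. Unlike the 5 sums above, this sum was higher in each PBS tumor than in each gluconate tumor, with 5.61 in PBS replicate 3 close to 5.52 in gluconate replicate 2. Neither FOXL2 nor AMH separated the groups. FOXL2 was at 1.56 FPKM in PBS replicate 3 and 3.06 in gluconate replicate 2. AMH was at 1.40 FPKM in PBS replicate 4 and 3.10 in gluconate replicate 4. Among single genes tested, 3.49% had groups that did not overlap, and nothing is read from this sum. The most abundant, FOXL2, an ovarian transcription factor, was at 21.5 FPKM in PBS replicate 4 and at most 3.61 elsewhere, while AMH was at 1.40, its lowest, and INHA, CYP19A1 and FSHR were at 0 there. WT1, of the carcinoma list, was at 6.58 FPKM there and at most 1.82 elsewhere. The part of these genes in the level of TENM4 was not tested.

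Over the 8 libraries, Pearson's r with TENM4 on log2(FPKM + 0.1) was 0.965 for FOXL2, 0.962 for WT1, 0.942 for LRRC4 and 0.939 for LRRTM3. Without PBS replicate 4 it was 0.854, 0.843, 0.776 and 0.697 over 7 libraries. These genes were chosen after their high values in PBS replicate 4 were seen, so a high r over the 8 libraries largely follows from that choice. LRRC4 and LRRTM3 had at most 29 and 20 fragments in a library. The points share their libraries and denominators, and these values are a description.

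Genes with a pattern like TENM2 were sought among the 12485 other genes tested, by Pearson's r on log2(FPKM + 0.1) over the 8 libraries. The gene ranked 1 is not reported here, and those ranked 2 to 5 were LRRC42 with r = 0.962, FMN2, a formin that builds actin filaments, with 0.926, BCL10, an adaptor of NF-kappaB signaling, with 0.917, and WARS2-AS1, an antisense RNA, with 0.912. These r values hold the difference between the groups as well as the spread within them, and the points share their libraries. Without PBS replicate 4 they were 0.961, 0.929, 0.923 and 0.927, which ranked 3, 17, 28 and 19, so 3 of these 4 genes were no longer among the 5 highest.

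FMN2 measured 3.82, 4.98, 4.78 and 4.14 FPKM in PBS replicates 1, 2, 3 and 4 and 3.63, 3.39, 3.61 and 3.67 in gluconate replicates 1, 2, 3 and 4. As in TENM2, PBS replicates 2 and 3 were the highest, and PBS replicate 1 and gluconate replicate 4 were the nearest between the groups. The amplitude was smaller than in TENM2, with a log2 fold change of -0.35 for WARS2-AS1, -0.29 for FMN2, -0.24 for BCL10 and -0.17 for LRRC42. Within the family, ADGRL2 followed TENM2 most closely, with r = 0.739 over 8 libraries and 0.765 over 7, and TENM2 and TENM3 had r = -0.345 and -0.386.

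**Figure D4:**
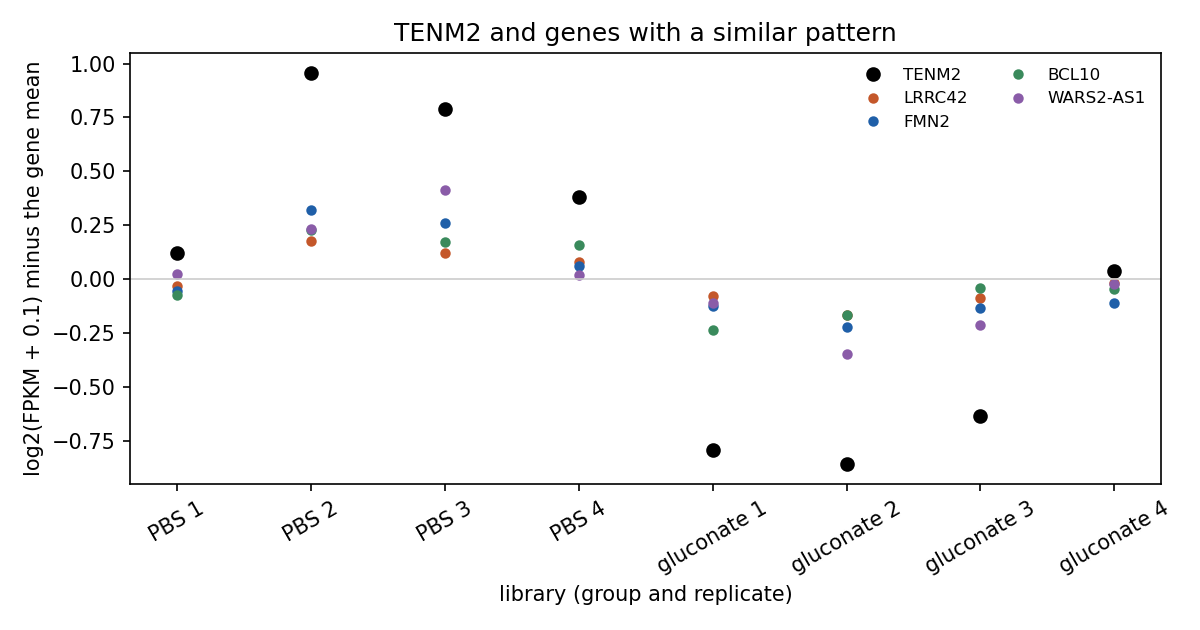
Log2(FPKM + 0.1) minus the mean of the gene (y axis) in each tumor library (x axis) for TENM2 and 4 of the 5 genes with the highest Pearson's r with it. All 5 genes are higher in PBS replicates 2 and 3 than in the gluconate libraries, and TENM2 has the widest range.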

How the data were processed

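The authors deposited FPKM values per gene symbol for the 8 tumor libraries; the submitters' processing notes name GRCh38, and the aligner, annotation, counting and strand are not given in the sources used here. Fragments were recovered from the steps of the values, with a tolerance of 0.01 fragment, and came out whole in 100% of values. Groups were compared with limma 3.58.1 in R 4.3.3 (lmFit, eBayes with trend, two-sided) on log2(FPKM + 0.1) over genes whose mean reached 0.5 FPKM, with Benjamini-Hochberg adjustment. The script was tested on simulated data. The members, the gene lists and the tests were chosen with earlier results of these data known. The rule for names was all members, of each related list the 3 most abundant genes and those with an unadjusted p under 0.05, the 5 genes most like TENM2, and of each marker list the most abundant gene and defining genes near 0. Others were named after their values were seen, and some genes under the rule, with 1 marker list, are not reported here. Alternatives were pseudocounts of 1 and 0.01, no filter, a mean of at least 1 FPKM, median-ratio scaling, quantile normalization, a replicate block, voom on fragments and leaving out each library. Positions and transcripts are from GENCODE 29 on GRCh38, read with Python 3.11.15.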

Additional observations from a re-analysis of the deposited data

Results flagged for a closer look

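In groups of 4, a library was marked where its gap to the nearest other library took up most of the range of the group, a mark that chance flags about 1 in 20 groups. Of 102 groups looked at, 13 were marked, 7 of them for PBS replicate 4, which was marked for its 3953206 fragments, the others of its group having 39895393 to 46551535. No explanation was tested for any of these marks.

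Within the PBS group, replicate 4 was far off in TENM4, at 5.91 FPKM, above 0.251 to 0.864, and in TENM3, at 2.75, below 3.72 to 3.91. It was also far above them in FOXL2, at 21.5 FPKM, and, through FOXL2, in the summed granulosa markers, at 22.9, and far below them in PECAM1, at 0.0688 FPKM, and in the summed endothelial markers, at 0.257, both on few fragments.

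Gluconate replicate 2 was far above the other gluconate tumors in TENM4, at 0.938 FPKM against 0.187 to 0.269, and in ADGRL3, at 0.121 against 0.108 to 0.109, a gap within counting error. ADGRG1 in gluconate replicate 3, at 11.1 FPKM, was far above 5.69 to 6.40. CIDEC in gluconate replicate 1 was at 0.106 FPKM from 6 fragments, against 3 fragments in each other gluconate tumor, so this gap rests on few fragments. The summed partners list was lowest in gluconate replicate 1, at 93.1 against 96.9 to 97.4. In PBS replicate 1 the ratio of TENM2 to TENM3, 0.476, was far below 0.772 to 0.831.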

How the results depend on the processing

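TENM2 was chosen by the comparison of gluconate with PBS, so the sign of its fold change supports nothing here. Its log2 fold change was below 0 under 14 of 14 alternatives, from -1.32 to -0.73. Those of TENM3, TENM4, ADGRL2, ADGRL3 and FLRT2 kept their sign under each alternative run for them, those of ADGRL1 under 12 of 14, TENM1 under 12 of 13 and FLRT3 under 8 of 13. Voom gave no value for the 5 members under the level for testing, and FLRT1 has no fold.

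Genes counted lower numbered 13. They were 3 with a pseudocount of 1, 7 with voom, and 6 to 46 when each library was left out in turn. Genes counted higher numbered 24. They were 5 with a pseudocount of 1, 61 with no filter, 10 with quantile normalization, 9 with voom, and 3 to 63 on leaving out each library. Voom without PBS replicate 4, added after seeing the data, gave 10 lower and 4 higher. Of the genes counted without PBS replicate 4, 5 of the 8 lower and 3 of the 3 higher were also counted with all libraries. Genes whose groups do not overlap numbered 436 with all libraries and 764 without PBS replicate 4, where fewer samples make separation easier. The count at an adjusted p under 0.05 was 0 under each alternative. The cause of the other shifts was not tested.

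With the replicate number as a replicate block, 15 genes were counted lower, 32 higher and 0 at an adjusted p under 0.05. Deviations of libraries with the same number had correlations of -0.178, 0.0836, 0.165 and -0.0575 for replicates 1, 2, 3 and 4. PBS replicates 2 and 3 correlated best with the gluconate replicate of their own number. PBS replicates 1 and 4 correlated best with gluconate replicates 4 and 1. These low values do not show a pairing, and so few libraries cannot exclude one.

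Depth limits PBS replicate 4 most: 1 fragment was worth 0.0152 FPKM of TENM2 there and 0.00129 to 0.00153 in the others.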
